A study of Mus musculus with 14 samples.

Results

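Genes of the integrated stress response and of the unfolded protein response were followed by name, 10 of the 33459 gene IDs in the count table. They were Atf4, Atf5, Ddit3, Trib3, Asns, Chac1, Sesn2, Gdf15, Hspa5 and Xbp1, a list chosen with earlier results of these data known and matched here by symbol, and each symbol matched 1 Ensembl ID. The tissues were gonadal white adipose tissue (gWAT) of FHL2-/- mice (KO, 3 libraries) and of WT mice (3 libraries), and heart of KO mice (4 libraries) and of WT mice (4 libraries). All mice were C57BL/6 and aged 21 weeks, with high-fat feeding for the last 8 weeks. FHL2 consists of LIM domains, zinc-binding modules for protein contacts, and acts as a cofactor of transcription factors. The labels do not say which part of the gene was removed, name no tissue-restricted deletion, and do not tie libraries to separate animals, so p-values measure the spread between libraries only. The design asks which transcripts differ with loss of Fhl2 in each tissue, and here that question is put to 10 genes.

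In the integrated stress response, kinases that sense amino acid shortage, misfolded protein, haem shortage or viral RNA phosphorylate the translation factor eIF2, which lowers protein synthesis overall while translation of the transcription factor ATF4 goes up. ATF4 and its partners then turn on genes for amino acid synthesis, amino acid transport and tRNA charging. The unfolded protein response works beside it at the endoplasmic reticulum (ER), where the sensors PERK, IRE1 and ATF6 report unfolded protein, IRE1 splices the Xbp1 transcript, and chaperone genes are induced. Much of ATF4 and XBP1 control acts on translation and splicing, which gene counts do not measure.

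gWAT libraries held 15105019 to 16040188 counts in total, and heart libraries 10835092 to 13272412. Levels are given in CPM, read counts relative to library size, on library sizes scaled by TMM over all 14 libraries, and Fhl2 served as the check of the genotype labels. Fhl2 stood at 0.208 to 0.376 CPM in KO gWAT, against 3.61 to 4.99 CPM in WT gWAT, and at 33.5 to 44.3 CPM in KO heart, against 1205 to 1632 CPM in WT heart. The tissue labels fitted their markers: 8 cardiomyocyte genes summed to 15.99 to 22.1 CPM in gWAT libraries and to 37001 to 45643 CPM in heart libraries. Libraries of 1 group differed on several marker lists. Across 11 genes of lipid-associated macrophages the summed level was 807, 806 and 892 CPM in KO gWAT, against 1593, 6407 and 4648 CPM in WT gWAT, so WT replicate 1 lay closest to the KO libraries. Across 8 atrial genes, hearts numbered 1 and 2 held 5181 and 5658 CPM in KO and 4813 and 3991 CPM in WT, while hearts numbered 3 and 4 held 737 and 1178 CPM in KO and 162 and 208 CPM in WT. The 7 mesothelial genes split the hearts by the same numbers, at 200.4 and 242 CPM in KO and 243 and 309 CPM in WT hearts 1 and 2, and at 53.6 and 105 CPM in KO and 52.2 and 45.3 CPM in WT hearts 3 and 4.

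All 10 genes matched RefSeq promoter windows on GRCm38.p6, and the 250 bases before each start were searched on both strands for letters known from these responses. The C/EBP-ATF response element core, TGATGNAA, through which ATF4 acts, was present in 3.45% of 32851 promoter windows and in those of 2 of the 10 genes, Asns and Chac1. The ER stress response element, CCAAT and CCACG set 9 bases apart, was in 0.113% of windows and in that of Hspa5. The core TGACGTGG, bound by ATF6 and XBP1, was in 0.563% of windows and in 0 of the 10. The searched motifs did not overlap in these windows. The 30 bases around each match are shown because they carry the response elements, on the strand of the gene and with the match in capitals. Asns lies on the minus strand (chr6:7693214-7693243, match 23 to 16 bases before the start), Chac1 on the plus strand (chr2:119351038-119351067, match 193 to 186 bases before the start and read on the other strand), and Hspa5 on the plus strand (chr2:34772020-34772049, match 65 to 47 bases before the start). These RefSeq starts lie 45, 13 and 120 bases from the GENCODE gene starts of Asns, Chac1 and Hspa5. The Asns and Hspa5 sites thus lie inside the GENCODE genes.
Asns: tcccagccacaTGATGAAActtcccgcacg
Chac1: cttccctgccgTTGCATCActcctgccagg
Hspa5: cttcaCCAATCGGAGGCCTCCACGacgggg
Gdf15 is shown with the 250 bases before its first RefSeq start (chr8:70632457-70632706, minus strand), since it had the largest fold change of the 10 genes in gWAT, and these letters hold 0 matches. RefSeq gives Gdf15 a second start, whose window also holds 0 matches. A match describes letters only and says nothing of binding in these tissues.
Gdf15: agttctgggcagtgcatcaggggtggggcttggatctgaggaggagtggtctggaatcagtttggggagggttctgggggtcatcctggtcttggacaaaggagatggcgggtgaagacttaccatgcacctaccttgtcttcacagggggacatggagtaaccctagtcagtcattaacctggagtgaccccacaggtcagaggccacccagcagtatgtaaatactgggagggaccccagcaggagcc

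In gWAT, Asns rose and Gdf15 fell in KO libraries, and the other 8 genes did not pass the test (edgeR quasi-likelihood F test, adjusted p under 0.05 over 15200 genes). Of all genes tested, 2.01% were called higher and 3.48% lower, beside which these genes had 1 higher and 1 lower of 10. On the log2 scale, 8 of the 10 fold changes were negative, and their median was -0.29 beside 0.00 over all genes. KO and WT libraries did not overlap for 7 of the 10 genes, where 27.6% of all genes had groups that do not overlap. Neither Asns nor Gdf15 kept its call when any library other than WT replicate 1 was left out, although the direction held each time.

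**Figure D1:**
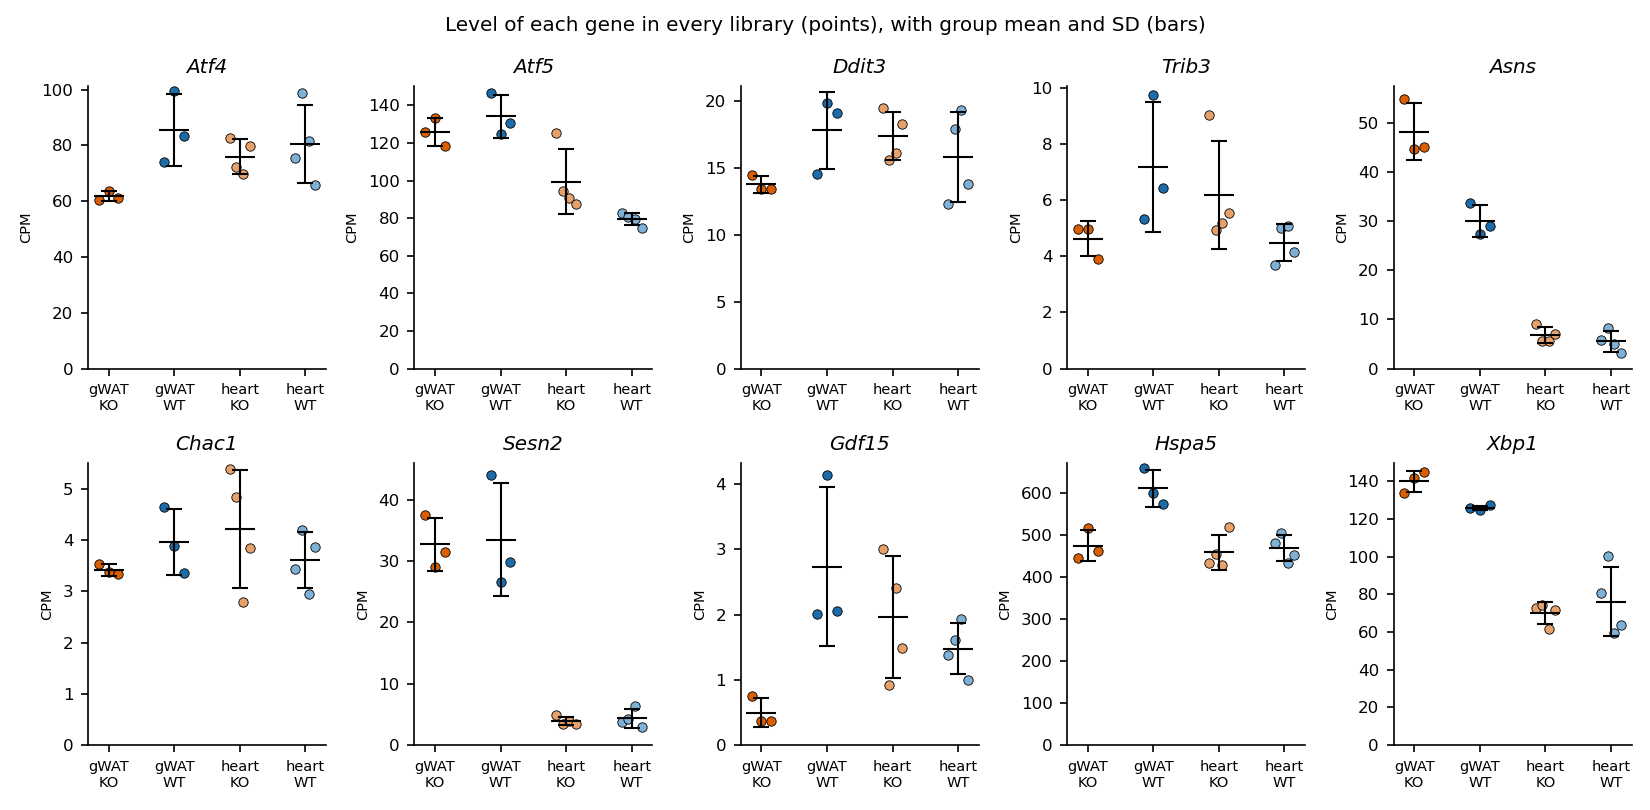
Level in CPM (y axis, from 0) of each of the 10 genes in every library, with KO left of WT within gWAT and heart. Points are libraries, and bars give the group mean and SD (n = 3 per gWAT group, n = 4 per heart group). The 3 gWAT KO points lie below every gWAT WT point for Atf4, Ddit3, Trib3, Gdf15 and Hspa5, and above every one for Asns and Xbp1.

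Among the transcription factors, Atf4, the effector of the integrated stress response (chr15:80255184-80257541, plus strand, GRCm38), held 60.4, 63.7 and 61.3 CPM in KO gWAT libraries 1, 3 and 4, against 74.0, 99.4 and 83.5 CPM in WT libraries 1, 3 and 4. The 3 KO libraries lay below the 3 WT libraries, and the KO libraries were close together, with a coefficient of variation of 2.77% in KO and 15% in WT. The log2 fold change was -0.47 ± 0.13 (SE), with an adjusted p of 0.0748 by edgeR. Without WT replicate 1, the library with the lowest Atf4 of its group, the adjusted p was 0.00742, and over the other libraries left out it was as high as 0.225. DESeq2 (adjusted p = 0.0257) and 1 edgeR fit of all 14 libraries (adjusted p = 0.0373) called Atf4 lower.

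Atf5, a relative of ATF4 that is likewise regulated at translation and acts in the mitochondrial stress response, held 118 to 133 CPM in KO gWAT, against 125 to 147 CPM in WT gWAT. The groups overlapped, and the fold change of -0.09 ± 0.10 on the log2 scale had a 95% interval of -0.33 to 0.14. Nup62 and Il4i1 overlap Atf5 on the opposite strand, and whether the counting used strand is not given in the sources used here.

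Ddit3, which encodes CHOP, a factor that ATF4 induces and that takes part in cell death under ER stress, held 14.5, 13.4 and 13.4 CPM in KO gWAT libraries 1, 3 and 4. WT libraries 1, 3 and 4 held 14.6, 19.9 and 19.1 CPM. KO replicate 1 and WT replicate 1 nearly touched, at 14.49 and 14.56 CPM, and the other WT libraries stood well above all KO libraries. The log2 fold change of -0.38 ± 0.15 did not pass (edgeR adjusted p = 0.179), and without WT replicate 1 it was -0.52 with an adjusted p of 0.014. Ddit3 (chr10:127290774-127296288, plus strand) overlaps Mars and Gm4189 on the opposite strand. On its own strand it overlaps a second Ddit3 ID of the annotation, which matched no row of the count table by symbol.

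Trib3, a pseudokinase that CHOP and ATF4 induce and that feeds back on ATF4, held 4.99, 4.99 and 3.91 CPM in KO gWAT libraries 1, 3 and 4, against 5.33, 9.77 and 6.44 CPM in WT libraries 1, 3 and 4. The highest KO and the lowest WT library were 4.99 and 5.33 CPM, and WT replicate 3 stood above all others. The log2 fold change of -0.64 ± 0.26 did not pass (edgeR adjusted p = 0.181), it was -0.34 without WT replicate 3, and -0.82 with an adjusted p of 0.0372 without WT replicate 1.

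Among the targets, Asns, which makes asparagine from aspartate and glutamine and is a standard readout of ATF4 in cultured cells, held 54.9, 44.7 and 45.0 CPM in KO gWAT libraries 1, 3 and 4. WT libraries 1, 3 and 4 held 33.6, 27.4 and 29.1 CPM. The groups were well apart, KO replicate 1 being the highest and WT replicate 3 the lowest. Asns rose 1.61-fold, a log2 fold change of 0.68 ± 0.12 (edgeR adjusted p = 0.0271), and was higher in 3 of 3 KO libraries than in any WT library. With 1 library left out the value ran between 0.59 and 0.76 and the adjusted p between 0.00368 and 0.133, the call being lost in 5 of 6 such fits. Of 10 white adipocyte markers 9 had positive fold changes and 2 were called higher, while Lep was at -0.45. Their sums overlapped, at 26465 to 29928 CPM in KO gWAT and 18557 to 28618 CPM in WT gWAT. All 7 mesothelial genes had positive fold changes and 3 rose, with sums of 276 to 468 CPM in KO and 102 to 225 CPM in WT gWAT. For 8 genes of fibroblasts and adipose progenitors the sums did not overlap, at 10648 to 11186 CPM in KO and 7888 to 9676 CPM in WT gWAT, although 4 of the 8 fold changes were positive and 0 passed by edgeR, 6 having an unadjusted p under 0.05. The part of these cells in the Asns result was not tested.

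Gdf15, a secreted hormone that acts on the hindbrain to lower food intake and that CHOP and ATF4 can induce, was read at low counts. KO gWAT libraries 1, 3 and 4 held 14, 7 and 7 reads (0.752, 0.364 and 0.365 CPM), against 35, 83 and 42 reads (2.01, 4.14 and 2.05 CPM) in WT libraries 1, 3 and 4. No KO library reached the level of any WT library, and WT replicate 3 held more than its group fellows. Gdf15 fell 5.53-fold, a log2 fold change of -2.47 ± 0.45 (95% interval -3.49 to -1.44, edgeR adjusted p = 0.0285). With 1 library left out it ran between -2.89 and -2.02, and the adjusted p between 0.00428 and 0.121, the call being lost in 5 of 6 such fits.

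Of 11 lipid-associated macrophage genes tested in gWAT, 10 fell in KO libraries, the same direction as Gdf15, and the median log2 fold change of the 11 was -2.22. The 3 with the highest level were Gpnmb at 129 ± 17.8 CPM in KO and 1267 ± 893 CPM in WT gWAT, Lgals3 at 270 ± 17.9 CPM in KO and 1040 ± 506 CPM in WT, and Lipa at 131 ± 8.66 CPM in KO and 431 ± 175 CPM in WT (SD, n = 3 each). A list of 10 general macrophage genes had 2 lower and a median of -0.61, with sums of 1043 to 1177 CPM in KO and 1180 to 1968 CPM in WT. All 8 genes of dividing cells fell, with sums of 46.6 to 54.5 CPM in KO and 120 to 217 CPM in WT gWAT. In bulk tissue, fewer cells of a type and less RNA per cell cannot be told apart, and the part of these cells in the stress-response values was not tested.

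Chac1, which degrades glutathione and is a target of ATF4 and CHOP, held 3.33 to 3.54 CPM in KO gWAT and 3.36 to 4.64 CPM in WT gWAT, with a log2 fold change of -0.21 ± 0.19 and a 95% interval of -0.65 to 0.23. Sesn2, a leucine sensor that holds back mTORC1, held 29.1 to 37.5 CPM in KO gWAT and 26.7 to 44.0 CPM in WT gWAT. Both genes had overlapping groups. The Sesn2 difference of -0.03 ± 0.18 on the log2 scale (95% interval -0.45 to 0.39) turned positive in 3 of 6 fits with 1 library left out, reaching 0.20 without WT replicate 1. Its libraries had a coefficient of variation of 13.2% in KO and 27.6% in WT gWAT.

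For the unfolded protein response, Hspa5, the ER chaperone BiP (chr2:34771970-34777547, plus strand), held 444, 516 and 463 CPM in KO gWAT libraries 1, 3 and 4. WT libraries 1, 3 and 4 held 660, 600 and 574 CPM. The groups did not overlap, and WT replicate 1 was here the highest library. The log2 fold change of -0.37 ± 0.12 did not pass (edgeR adjusted p = 0.12), while DESeq2 (adjusted p = 0.0245) and the fit of all 14 libraries (adjusted p = 0.0408) called it lower. Xbp1, whose spliced form is a main factor of this response, held 134 to 145 CPM in KO gWAT and 125 to 127 CPM in WT gWAT. Its log2 difference of 0.15 ± 0.09 did not pass (95% interval -0.06 to 0.37), although no KO library overlapped WT. Spliced and unspliced Xbp1 share 1 count, so splicing cannot be read from these values.

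**Figure D2:**
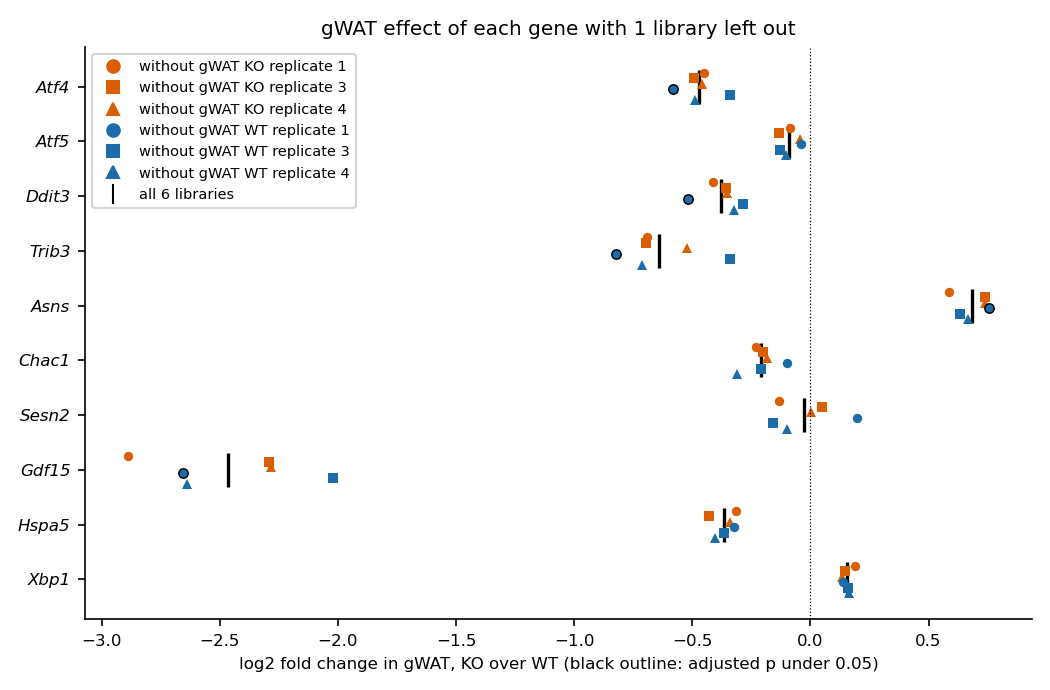
Log2 fold change of KO over WT in gWAT (x axis) for each gene, with all 6 libraries (vertical mark) and with 1 library left out (symbols, orange for a KO and blue for a WT library left out). A black outline marks an adjusted p under 0.05, which occurred for 5 genes without WT replicate 1 and for 0 genes without any other library.

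The other genes of these responses were read from 11 lists with 123 genes, 120 of them tested in gWAT. In KO gWAT 8 fell and 0 rose, which is 6.67% called beside 5.49% of all genes, with a median log2 fold change of -0.08 over the lists beside 0.00 over all genes. The 8 were Mthfd2, Slc7a5, Iars, Cars, Yars, Aars, Atf3 and Creld2. With WT replicate 4 or any KO library left out, 0 of the listed genes passed, and without WT replicate 3 there were 2, Mthfd2 and Slc7a5, both lower. Without WT replicate 1 the lists had 18 lower and 6 higher genes, DESeq2 gave 13 lower and 3 higher, and limma-voom gave 4 lower and 0 higher, with Atf3, Yars, Aars and Creld2 not passing.

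The list of amino acid synthesis and transport genes had 2 of 18 lower. Mthfd2, a mitochondrial enzyme of folate metabolism, averaged 7.10 ± 0.30 CPM in KO and 15 ± 0.94 CPM in WT gWAT (SD, n = 3 each), a log2 fold change of -1.08 ± 0.13 (edgeR adjusted p = 0.0156). Slc7a5, the light chain of a carrier of large neutral amino acids, averaged 4.52 ± 0.50 CPM in KO and 9.88 ± 0.88 CPM in WT gWAT, a log2 fold change of -1.13 ± 0.16 (edgeR adjusted p = 0.0216). Both fell where Asns, a target of the same factor, rose. The list's median was -0.20, and 13 of 18 values were negative.

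All 12 cytosolic aminoacyl-tRNA synthetases, which charge tRNAs with amino acids, had a negative fold change in gWAT, and 4 of them fell. Iars averaged 27.9 ± 0.74 CPM in KO and 41.6 ± 3.13 CPM in WT gWAT (SD, n = 3 each), at -0.58 on the log2 scale. Cars averaged 21.3 ± 0.10 CPM in KO and 30.1 ± 2.00 CPM in WT, at -0.50. The other two were Yars at -0.46 and Aars at -0.40. The median of the list was -0.24, and 11 or 12 of its 12 values stayed negative with any 1 library left out or under the other scalings.

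Of 14 ER chaperones and disulfide isomerases 12 had negative values, with a median of -0.24, and 1 fell, Creld2, an ER protein induced by ER stress, at 13 ± 0.64 CPM in KO and 19.1 ± 1.52 CPM in WT gWAT (SD, n = 3 each). Of 9 partner transcription factors 1 fell, Atf3, an early stress-induced factor, with 15.1 to 22.1 CPM in KO and 32.4 to 124 CPM in WT gWAT, a log2 fold change of -2.08 ± 0.43 (edgeR adjusted p = 0.0362). Its WT libraries spread widely, and its KO libraries did not reach them. Among the stress sensors and eIF2 kinases, 0 of 10 tested genes passed, 0 had an unadjusted p under 0.05 by edgeR, where 23.1% of all genes did, and the median was -0.04.

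**Figure D3:**
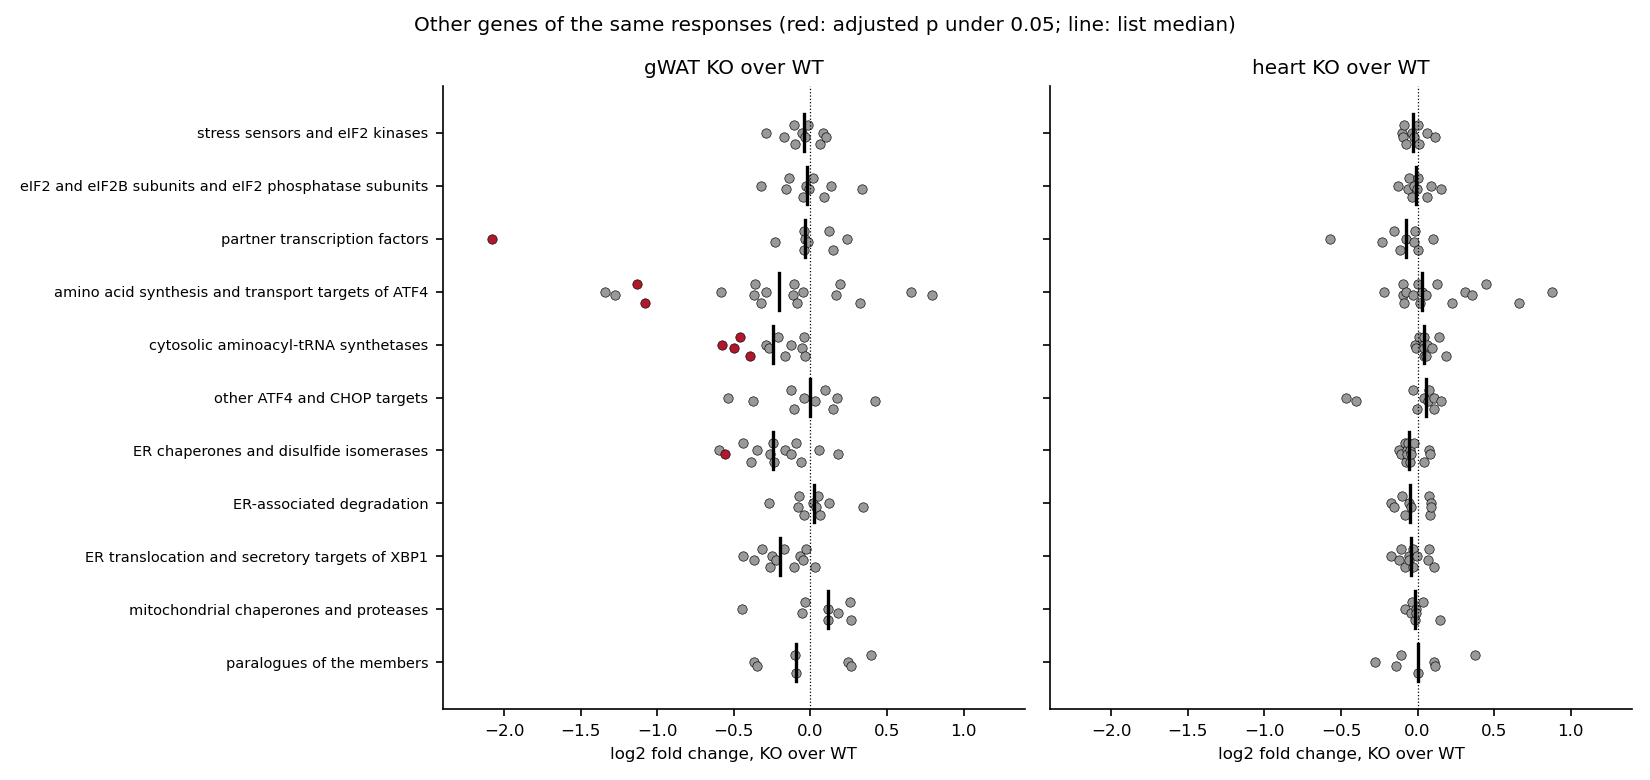
Log2 fold change of KO over WT (x axis) for each tested gene of the 11 lists (rows), in gWAT on the left and heart on the right. Red points had an adjusted p under 0.05, and the vertical line in each row is the list's median, which lies at -0.24 for tRNA synthetases in gWAT and at 0.04 in heart.

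In heart 0 of the 10 genes passed the test by edgeR, and 0.00706% of the 14159 genes tested did, which is Fhl2 alone. One of the 10, Atf5, had an unadjusted p under 0.05, as had 3.2% of all genes, and 0 passed with DESeq2 or limma-voom. The fold changes were small: 6 were positive and 4 negative, with a median of 0.18 on the log2 scale beside 0.00 over all genes. The groups did not overlap for 1 gene, Atf5, where 2.38% of all genes had groups apart.

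Atf5 held 125, 94.3, 90.9 and 87.6 CPM in KO hearts 1 to 4, against 82.7, 80.8, 79.5 and 74.9 CPM in WT hearts 1 to 4. Every KO heart was above every WT heart, and KO replicate 1 stood above its group. The log2 fold change was 0.32 ± 0.11 (edgeR adjusted p = 1), and 0.19 without KO replicate 1. Within hearts numbered 1 and 2 it was 0.43, and within hearts numbered 3 and 4 it was 0.21, with neither passing. Trib3 held 9.04, 4.94, 5.197 and 5.54 CPM in KO hearts 1 to 4, against 3.70, 5.002, 5.08 and 4.16 CPM in WT hearts 1 to 4. KO replicates 1, 3 and 4 lay above the highest WT heart, replicate 1 by far the most, and KO replicate 2 lay within the WT range. The log2 fold change of 0.46 ± 0.22 (edgeR adjusted p = 1) was 0.22 without KO replicate 1, 0.70 within hearts numbered 1 and 2, and 0.21 within hearts numbered 3 and 4.

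KO replicate 1 was the highest library of its group for 8 of the 10 genes in heart. Its total of 12173494 counts lies within the range of the heart libraries, and its atrial sum of 5181 CPM was close to that of KO replicate 2, which was the highest for 1 gene. Why KO replicate 1 was so often the highest was not tested.

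The remaining genes had overlapping groups in heart. Atf4 held 69.6 to 82.7 CPM in KO and 65.9 to 99.0 CPM in WT hearts, and its log2 difference had a 95% interval of -0.34 to 0.17. Ddit3 held 15.6 to 19.5 CPM in KO and 12.3 to 19.4 CPM in WT hearts, with an interval of -0.20 to 0.46. For Hspa5, at 428 to 519 CPM in KO and 434 to 504 CPM in WT hearts, the interval was the narrowest of the 10, from -0.22 to 0.16. Xbp1 held 61.7 to 74.4 CPM in KO and 59.7 to 100.4 CPM in WT hearts, with an interval of -0.45 to 0.20.

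The targets were low in heart and their intervals wide. Asns held 5.66 to 9.04 CPM in KO and 3.07 to 8.22 CPM in WT hearts, and the interval of its log2 difference was -0.29 to 0.90, which includes the value seen in gWAT. Gdf15 was at 9 to 33 reads in KO and 10 to 19 reads in WT hearts, with an interval of -0.40 to 1.23. Chac1 and Sesn2 had log2 differences of 0.22 ± 0.23 and -0.14 ± 0.25. Of the 119 listed genes tested in heart, 0 passed and 6 had an unadjusted p under 0.05 by edgeR, beside 3.2% of all genes tested. Mthfd2 had the value that came closest, 14.3 ± 2.18 CPM in KO and 7.76 ± 1.13 CPM in WT hearts (SD, n = 4 each), a log2 fold change of 0.88 ± 0.14 (edgeR adjusted p = 0.6), with groups that did not overlap. DESeq2 called it (adjusted p = 0.00435), as did edgeR with no filter on low counts (adjusted p = 0.0364) and with the number sets as a covariate (adjusted p = 0.0292). It did not pass with the replicate block that pairs equal heart numbers (adjusted p = 0.139), the atrial covariate (0.0838), limma-voom (0.78) or the fit of all 14 libraries (0.0507). Within hearts 1 and 2 it was 0.88, and within hearts 3 and 4 it was 0.89.

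**Figure D4:**
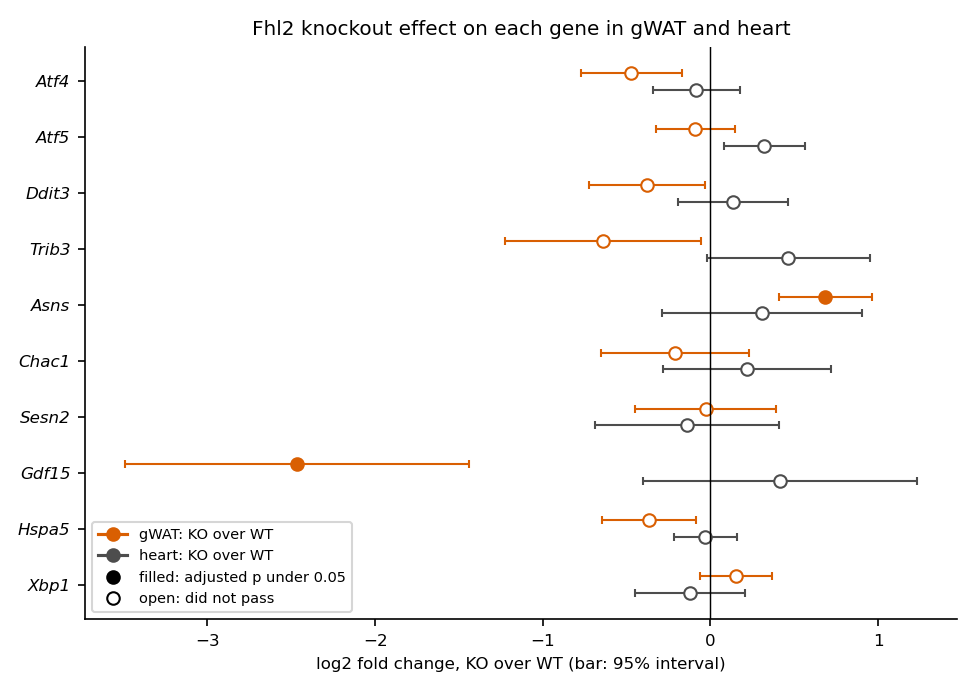
Log2 fold change of KO over WT (x axis) with its 95% interval for each gene, in gWAT (orange) and heart (grey). Filled points had an adjusted p under 0.05, which were Asns at 0.68 and Gdf15 at -2.47 in gWAT and 0 genes in heart.

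The difference between the KO effects was tested in 1 fit of all 14 libraries, as the log2 fold change in gWAT minus that in heart. Of 16014 genes, 0.787% were called lower by this test, and of the 10 genes 1 was, Gdf15, at -2.87 ± 0.61 (edgeR adjusted p = 0.0358). That call was lost with the replicate block (adjusted p = 0.0555), with limma-voom (adjusted p = 0.0816) and in 12 of the 14 fits with 1 library left out, all but those without KO heart replicate 2 or WT gWAT replicate 1. The block used here pairs KO and WT libraries of equal number within each tissue. It does not pair heart with gWAT, so it is no check on animals shared between tissues. Over the 14 fits the value ran from -3.29 to -2.44 and the adjusted p from 0.00757 to 0.0956. The next value was that of Trib3, at -1.10 ± 0.34 (adjusted p = 0.125), whose levels were lower in KO in gWAT and higher in KO in heart without passing in either tissue. Asns, the gene called higher in gWAT, had a difference between tissues of 0.38 with a 95% interval of -0.29 to 1.05, so its effect was not shown to differ between them.

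Of the 120 listed genes tested for this difference, 3 were called, each with a KO effect lower in gWAT than in heart. Mthfd2 had a difference of -1.96 (edgeR adjusted p = 0.000651), which was called in each of the 14 fits with 1 library left out, with a range of -2.06 to -1.85. On TMM scaling its KO gWAT and WT heart levels, 7.10 and 7.76 CPM, were close, as were its WT gWAT and KO heart levels, 15 and 14.3 CPM. Levels set side by side across tissues depend on the scaling, so this closeness is not read as a result. Slc7a5 had a difference of -1.58 and Iars of -0.59 (edgeR adjusted p = 0.0218 each). Their adjusted p lay between 0.00183 and 0.0795 with 1 library left out: both calls were lost without WT gWAT replicate 3 or 4, or KO gWAT replicate 1 or 4, and that of Iars also without KO gWAT replicate 3 or WT heart replicate 2. Slc7a5 averaged 10.3 ± 1.92 CPM in KO and 7.51 ± 1.79 CPM in WT hearts (SD, n = 4 each), while Iars was at 61.7 ± 1.59 CPM in KO and 61.1 ± 2.49 CPM in WT hearts.

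Per kilobase of exon, Hspa5 was the most abundant of the 10 genes in all 4 groups and Gdf15 the least. Hspa5 stood at 112 CPM per kb in KO gWAT and 145 in WT gWAT, and at 108 in KO heart and 111 in WT heart. Atf5 followed at 39.9 to 67.3 CPM per kb over the groups. Xbp1 came next in gWAT, at 43.1 in KO and 38.8 in WT, ahead of Atf4, and in heart Atf4 came next, at 32.2 in KO and 34.1 in WT, ahead of Xbp1. The rest, with Asns in gWAT the highest of them at 17.6 in KO and 10.97 in WT, lay below these 4 genes in every group.

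Asns and Sesn2 set gWAT apart from heart more than any other of the 10 genes. In KO mice, gWAT over heart was 2.79 ± 0.16 for Asns and 3.04 ± 0.15 for Sesn2 on the log2 scale, and in WT mice it was 2.43 ± 0.25 for Asns and 2.95 ± 0.26 for Sesn2. Xbp1 and Atf5 were also higher in gWAT in both genotypes, Xbp1 by 0.98 in KO and 0.72 in WT mice, and Atf5 by 0.32 in KO and 0.75 in WT mice. The Atf5 call in KO mice was lost in 5 of 7 fits with 1 library left out (KO heart replicates 2, 3 and 4, KO gWAT replicates 1 and 3), with values from 0.27 to 0.46 over the 7. Chac1 passed in neither genotype, at -0.32 in KO and 0.13 in WT mice, and Hspa5 passed in WT but not in KO mice, at 0.03 in KO and 0.38 in WT mice. These comparisons called most genes: in KO mice 34.8% of 15245 genes were higher and 35% lower in gWAT, and in WT mice 36.1% of 15287 were higher and 33.3% lower. Of the 10 genes, 4 were higher and 3 lower in KO mice, and 7 were higher and 0 lower in WT mice, counts that stand beside those shares.

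Gdf15, Atf4 and Ddit3 were lower in gWAT than in heart in KO mice, at -2.00, -0.32 and -0.35 on the log2 scale. The Atf4 and Ddit3 calls were lost with no filter on low counts (edgeR adjusted p = 0.0771 for Atf4 and 0.0912 for Ddit3) and in the fit of all 14 libraries (0.0503 for Atf4 and 0.0668 for Ddit3). The Ddit3 call was also lost without KO gWAT replicate 3 or 4, at -0.32 each. In WT mice Gdf15 was higher in gWAT at 0.89 (edgeR adjusted p = 0.0471), a call lost without WT heart replicate 1, 2 or 4 or WT gWAT replicate 3, where it was 0.46. This call was also lost with RLE scaling (adjusted p = 0.0508), DESeq2 (0.0594), limma-voom (0.0758) and the fit of all 14 libraries (0.0563). In WT mice Atf4 at 0.09 and Ddit3 at 0.17 did not pass. By group mean Gdf15 was lowest in KO gWAT at 0.49 ± 0.224 CPM and highest in WT gWAT at 2.73 ± 1.22 CPM. KO heart at 1.96 ± 0.93 CPM and WT heart at 1.48 ± 0.39 CPM lay between them, and the heart groups did not differ beyond their spread. Trib3 was likewise highest in WT gWAT, at 7.18 ± 2.31 CPM. In WT mice it was higher in gWAT than in heart at 0.68, a call lost without WT heart replicate 1 or 4 or WT gWAT replicate 3, where it was 0.40.

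These tissue differences depend on scaling. TMM factors were 0.784 to 0.901 in heart and 1.16 to 1.33 in gWAT libraries, and dividing by library totals instead moved the median of all genes up by 0.499 in KO and 0.577 in WT mice. The share of calls that were higher in gWAT was then 72.2% in KO, against 49.9% with TMM, and 74.7% in WT, against 52% with TMM. On totals, Atf4, Ddit3, Trib3 and Chac1 turned positive in KO mice without passing, at 0.18, 0.15, 0.06 and 0.18, and all 10 genes were called higher in WT mice. Hspa5, which did not pass in KO mice with TMM, was called higher there on totals, at 0.53 (edgeR adjusted p = 0.000366). The calls of Asns, Sesn2, Xbp1 and Atf5 as higher, and of Gdf15 as lower in KO mice, were present under both scalings.

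**Figure D5:**
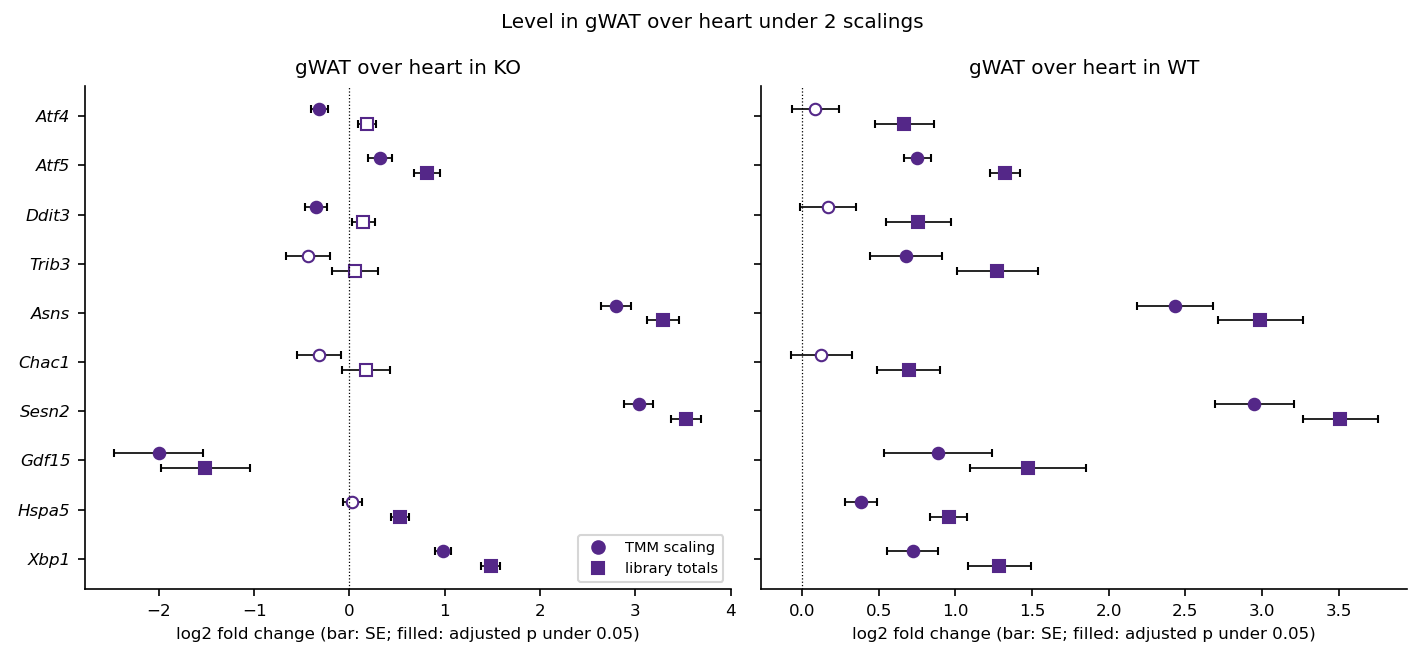
Log2 fold change of gWAT over heart (x axis, bars are SE) for each gene in KO mice (left) and WT mice (right), under TMM scaling (circles) and library totals (squares). Filled points had an adjusted p under 0.05. Asns and Sesn2 lie above 2 under both scalings in both genotypes, and Gdf15 is below 0 in KO mice and above 0 in WT mice.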

How the data were processed

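Libraries came from flash-frozen tissue, with Trizol RNA and the Kapa mRNA HyperPrep kit, per the labels' protocols. The deposited values are raw read counts per Ensembl gene, whole numbers that the authors did not normalize, with 0 columns lacking a sample. Per the submitters' processing notes the tools were FastQC, Picard, Trimmomatic 0.32, HISAT2 2.1.0, HTSeq 0.11.0 and limma, on mm10. Not given in the sources used here are their roles, the annotation release and the strand setting. Symbols and coordinates are from GENCODE M21 (GRCm38), and 33406 of 33459 IDs had a symbol.

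Analyses ran in R 4.3.3 (edgeR 4.0.16, limma 3.58.1, DESeq2 1.42.0) and Python 3.11.15 (pandas 2.3.3, matplotlib 3.10.9). Each tissue was filtered with filterByExpr, scaled with TMM and tested with edgeR's quasi-likelihood F test, with p adjusted by Benjamini-Hochberg over the genes tested and a threshold of 0.05. The difference between tissues was an interaction contrast. All 10 genes passed the filter in every comparison. The SE is the absolute log2 fold change over the square root of F, and 95% intervals use the test's degrees of freedom. On simulated counts at these means and sizes for gWAT, 91 of 100 genes changed 2-fold were recovered. The simulation gave every gene the same spread and changed only genes above a minimum mean count. That spread was set below the common biological coefficient of variation of 0.168 that edgeR fitted in gWAT. Real genes differ in spread, so this share is not the power for the 10 genes.

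The members and lists were chosen with earlier results of these data known. Named are all 10 genes, and from each list of the same responses up to 4 genes past the threshold in gWAT or else the 1 with the smallest p. The marker lists described are given as wholes, with few of their genes named. Lists of endothelial cells, brown adipocytes and epididymal epithelium were also read and are not described. Of 6 plasma cell genes tested in gWAT, 5 had positive fold changes and 1 was called lower by edgeR. Their sums overlapped, at 626 to 1194 CPM in KO and 720 to 1251 CPM in WT gWAT. Library pairs within a group differed by more than sampling noise (lowest chi-square per degree of freedom 3.74). Equal numbers were checked by correlating deviations from group means between KO and WT libraries, and between heart and gWAT libraries of the same genotype. In heart all 4 pairs of equal number had r of 0.245 to 0.347, and 3 of 4 WT hearts correlated best with their own number. Unequal numbers within hearts 1 and 2, or within hearts 3 and 4, had r of 0.167 to 0.443. These heart correlations follow the number sets and do not show that equal numbers pair single samples. Between heart and gWAT of equal number, r was -0.0129 to 0.225 in KO and -0.0316 to 0.0832 in WT mice. In each genotype, 2 of 3 hearts correlated best with the gWAT library of their own number. Whether such libraries share an animal is not given, and the main fits across tissues treated all libraries as independent. The labels give only the number, and the main fits used no pairing. Alternatives were RLE scaling, library totals, no filter, a mean of at least 10 counts, DESeq2, limma-voom, a joint fit of the 14 libraries, a replicate block, an atrial or number-set covariate in heart, and leaving out each library. The replicate block pairs KO and WT libraries of equal number within a tissue, also in the fit of the difference between tissues. Only in gWAT over heart does it pair heart with gWAT of equal number. Fits within heart number sets were added after seeing the data.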

Additional observations from a re-analysis of the deposited data

Results flagged for a closer look

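Of 52 groups of 4 heart libraries examined, 4 had a library far from the others, and chance alone gives about 5% of groups. In KO heart, Trib3 was at 9.04 CPM in replicate 1, with the other 3 at 4.94 to 5.54 CPM. Slc7a5 was at 13.1 CPM in KO heart replicate 1, with the others at 9.19 to 9.47 CPM. Eif2b3, a subunit of the eIF2 exchange factor, was low in KO heart replicate 2 at 10.6 CPM, with the others at 12.8 to 13.1 CPM. In WT heart, Derl1, a membrane protein of ER-associated degradation, was at 50.5 CPM in replicate 1, and the others lay so close together, at 50.04 to 50.11 CPM, that a small gap stood out.

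The KO effect differed between gWAT and heart for 4 named genes, by the interaction test on the log2 scale: Gdf15 by -2.87, Mthfd2 by -1.96, Slc7a5 by -1.58 and Iars by -0.59. The Gdf15 call was lost with limma-voom, with the replicate block and in 12 of 14 fits with 1 library left out, and those of Slc7a5 and Iars in some of these 14, while that of Mthfd2 was kept in each of them. The Slc7a5 heart value includes replicate 1 of KO heart.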

How the results depend on the processing

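In gWAT, all 10 genes kept their direction under every scaling, filter, tool and block tried, and with 1 library left out the direction turned only for Sesn2 (-0.159 to 0.1953). Genes called in gWAT were 1600 with no filter, 1769 with DESeq2, 477 with limma-voom, 1725 in 1 fit of all libraries, and 0 to 2908 with 1 library left out (2908 without WT replicate 1, 132 without WT replicate 3, 0 without any other). Of the 10 genes, 4 were called with DESeq2 and 4 in 1 fit of all libraries, and 0 to 5 with 1 library left out. With the replicate number as a block, 0 genes and 0 of the 10 were called in gWAT, where equal numbers had r of -0.224 to 0.0416 and 0 of 3 libraries correlated best with their own number. In heart the block changed no call. In heart, genes called were 3 with no filter, 2 with DESeq2, 7 with the atrial covariate, 2 with the number-set covariate and 17 within hearts 3 and 4, and 0 of the 10 in every fit. Heart values that changed sign were Hspa5 at 0.01112 on library totals, Iars at -0.007865 with the atrial covariate, Sesn2 at 0.07299 and Iars at -0.02078 within hearts 1 and 2, and Atf4 at 0.01459, Chac1 at -0.04381, Hspa5 at 0.09231 and Xbp1 at 0.1071 within hearts 3 and 4. With 1 heart library left out, Atf4 ran from -0.168 to 0.03179, Hspa5 from -0.0946 to 0.006424, Sesn2 from -0.2901 to 0.09985, Xbp1 from -0.2238 to 0.03833 and Iars from -0.005744 to 0.03892. For the difference between tissues, genes called were 533 with no filter, 669 with DESeq2, 69 with limma-voom and 3 to 1315 with 1 library left out. Of the 10 genes, 0 were called with limma-voom, 0 with the replicate block and 0 to 2 with 1 library left out, and Sesn2 ran from -0.1351 to 0.3483. Between tissues, library totals gave Atf4 0.1844, Ddit3 0.1456, Trib3 0.05795 and Chac1 0.1751 in KO mice, and Hspa5 0.5343, which was then called. With 1 library left out, Hspa5 ran from -0.01443 to 0.1026 in KO mice and Atf4 from -0.02796 to 0.198 in WT mice. The cause of these changes was not tested, and a fit with 1 library left out also holds fewer libraries. The KO gWAT level of Gdf15 rests on 28 reads in all.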

Other observations

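The remaining lists of the same responses had 0 called genes in either tissue by edgeR. In gWAT, 11 of 12 ER translocation and secretory targets of XBP1 had negative fold changes, with a median of -0.20 on the log2 scale, 5 of them with an unadjusted p under 0.05, where 23.1% of all genes tested had one. The one with the smallest p was Sec61b, a subunit of the ER translocation channel, at -0.31. Genes of ER-associated degradation had a median of 0.03, with 2 unadjusted p under 0.05, and Derl1 held 144 ± 6.58 CPM in KO and 114 ± 11 CPM in WT gWAT (SD, n = 3 each). Subunits of eIF2, eIF2B and the eIF2 phosphatase had a median of -0.02, with 2 unadjusted p under 0.05, and Eif2b3 held 26.3 ± 1.10 CPM in KO and 20.9 ± 2.41 CPM in WT gWAT.

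Mitochondrial chaperones and proteases had a median of 0.11 in gWAT, with 1 unadjusted p under 0.05, that of Htra2, a protease of the intermembrane space, at -0.45 and at -0.23 without WT replicate 3. Other targets of ATF4 and CHOP had a median of -0.01, with 2 unadjusted p under 0.05, and Sqstm1, an autophagy receptor, was at -0.37. Of the 10 sensors, Mbtps2, which cleaves ATF6, was at -0.29, and at -0.16 without KO replicate 1. Paralogues of the 10 genes had a median of -0.10, with 2 unadjusted p under 0.05, and Gdf10 was at 0.39.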
